A study of Rattus norvegicus with 2 samples.

Results

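The genes described here encode 10 molecules by which leukocytes hold on to vessel walls and to other cells, namely Sele, Selp, Selplg, Icam1, Icam2, Vcam1, Glycam1, Madcam1, Itgal, and Itga4. They were chosen by name, as every noncontrol probe that carries one of these gene names in the files, which gave 11 probes, 2 of them for Sele, for 10 of the 36174 gene names on the array. RNA of cervical lymph nodes was hybridized to 2 arrays, 1 from the C group, male Sprague-Dawley rats aged from 10 to 12 weeks without stress, and 1 from the RS group, rats of the same strain, sex, and age after restraint stress. The labels give no restraint time, and the paper describes its array comparison for the group restrained for the shortest time (RS30). By the methods, the rats were anesthetized with inhaled halothane and killed by an overdose of pentobarbital, and whether an array took RNA from 1 rat or was pooled is given neither by the labels nor by the methods. With 1 array per group, none of the differences has a replicate check, and no test is given.

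Leukocytes leave the blood in steps. Selectins on the endothelium (E-selectin, encoded by Sele, and P-selectin, encoded by Selp) catch sugar-bearing ligands and let the cells roll, chemokines then switch integrins of the leukocyte to their binding form, and the integrins arrest the cell on immunoglobulin-like molecules of the vessel wall. In lymph nodes, lymphocytes enter mainly through high endothelial venules, whose sialomucins, such as GlyCAM-1, bear the sugars that lymphocytes catch on to.

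On neither side of this system did a member differ by 2-fold or more between the arrays. Of the 9 members well above background, 6 were higher and 3 were lower on the RS array, with log2 differences from -0.55 (Itgal) to 0.74 (Sele) and a median of 0.27. Of the 21109 genes screened, those detected well above background on either array, 3.46% were higher and 4.28% were lower by 2-fold or more, and 52.1% had a difference above 0 (median 0.02). The largest differences were those of Sele, Icam1, and Madcam1 among the members that were higher, and that of Itgal among those that were lower. P-selectin gave no measurement, since neither array had its probe well above background.

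Each value of a member rests on a probe of 60 bases printed in 1 spot per array. Because the probe decides which part of a transcript is read, the first 30 bases of each are given, with the position of the whole probe on the rat build rn4, the build named in the header of the scanner files.
Sele probe 1, chr13:79819671-79819730, forward strand: acctcacttctgacattgtcctcattgatc
Sele probe 2, chr13:79822442-79822501, forward strand: aaagtgtcccaacttctgaattaactcgtt
Selp, chr13:79922078-79922137, forward strand: agcagggaaggtcctcctttcggtattttg
Selplg, chr12:43843376-43843435, forward strand: acatgtacccagtgcggaactactccccca
Glycam1, chr7:142455770-142455829, reverse strand: attgaaggatttataagtggtgtggaagac
Madcam1, chr7:11553234-11553293, reverse strand: attatgccagactaagggaggcaaaggatt
Icam1, chr8:20051730-20051789, forward strand: aatatggacgctcacctttagcagctcaac
Icam2, chr10:95775052-95775111, reverse strand: ctcatgggaaatggatagaattcctagtct
Vcam1, chr2:212277695-212277754, reverse strand: acggggacgtgtttcttcatcaggatcttg
Itgal, chr1:186594579-186597988, forward strand: ttttcctagcgctctacaaggttggtttct
Itga4, chr3:62097157-62097216, forward strand: ttgtgacccactctgtcttagtgctgggga
Each probe matches a RefSeq mRNA accession in the files, and therefore exonic sequence, and whether it lies in coding sequence or in a UTR was not analysed here. The probe for Itgal covers 3410 bases of the genome with its 60 bases, so it spans at least 1 intron. For 10 of the 11 probes, the accession carried the same symbol in the RefSeq table of the GRCr8 assembly. The accession of the Selplg probe was not matched. No member probe was saturated, and none holds an alternating run, meaning at least 6 bases in which A and G take turns.

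Intensities are given as the scanner software extracted them, and a log2 difference is RS minus C after the 75th percentile of each array was subtracted. That percentile was an intensity of 189 for C and 176 for RS. The spot error is the error that the software states for both spots together. It covers the measurement of the spots and not the difference between rats. Of all probes, 54.7% on the C array and 54.9% on the RS array were well above background, and the arrays shared 1 slide and 1 scan.

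The selectins of the endothelium were near or below the limit of detection. E-selectin, which activated endothelium displays, was read by a pair of probes on chromosome 13. The first read 2.28 for C and 2.40 for RS in intensity and was well above background on neither array. The second read 16.2 for C and 25.2 for RS and was well above background on both. This was a log2 difference of 0.74 (1.67-fold) beside a spot error of 0.28, the largest among the members. The lowest intensity that was well above background was 9.45 for C and 8.52 for RS, so even the brighter Sele probe was dim. By quartile of signal, from dim to bright, 13.8%, 8.02%, 5.32%, and 3.77% of all genes differed by 2-fold or more in either direction, so differences are widest where Sele lies. Among the other genes in its quartile, the dimmest, 553 of 5277 (10.5%) were higher by as much or more. The difference of Sele dropped to 0.28 with the normexp background correction, which adds an offset to all signals. P-selectin, which platelets and endothelial cells store in granules, read 2.09 for C and 1.89 for RS in intensity, so no fold change is given.

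The ligands of the selectins differed by about the error of a spot. Selplg, which encodes the P-selectin ligand of leukocytes, went from an intensity of 58.5 on the C array to 45.9 on the RS array, a log2 difference of -0.25 beside a spot error of 0.22. Glycam1, the sialomucin of high endothelial venules, went from 16635 to 18205, a log2 difference of 0.23 beside a spot error of 0.20. Neither difference exceeded 1.96 times the spot error. As a defining gene of high endothelial venules, Glycam1 was bright on both arrays, 6.46 log2 units above the 75th percentile on the C array and 6.69 on the RS array.

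**Figure D1:**
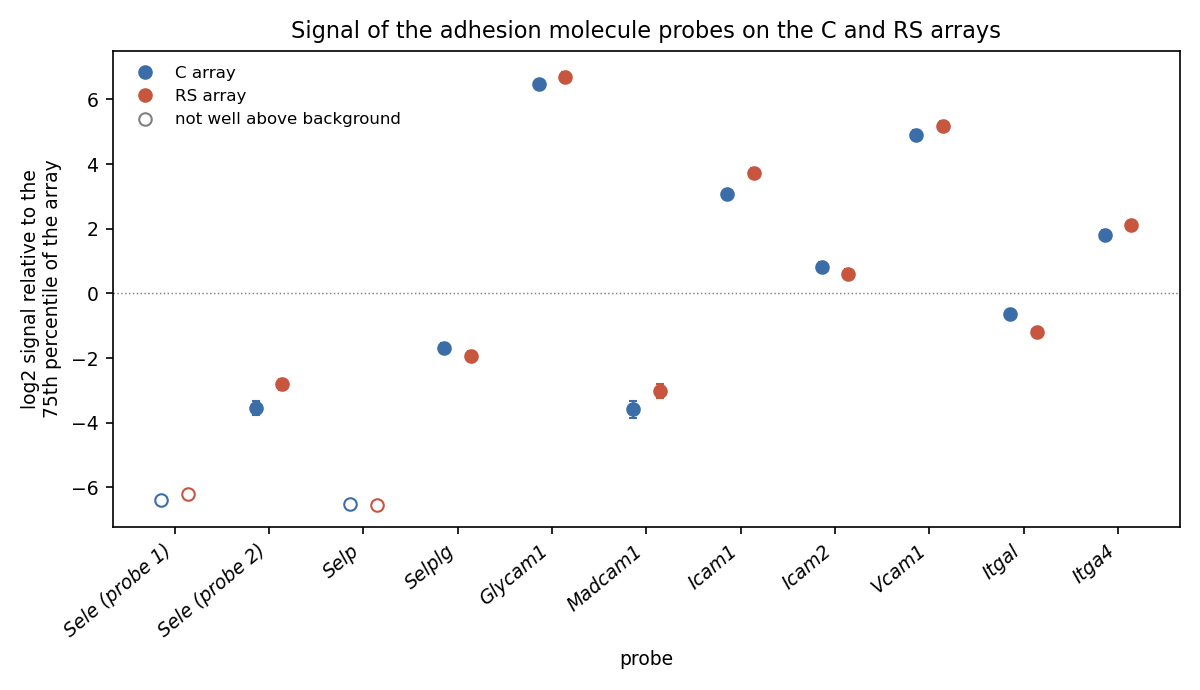
Signal of the 11 probes, as log2 intensity relative to the 75th percentile of the array (dotted line at 0), on the C array (blue) and the RS array (red). Bars give the spot error, which is smaller than the symbol for bright probes; open symbols, without bars, were not well above background. Levels of different probes are not comparable; within each probe, both arrays lie close together, and the first Sele probe and the Selp probe lie at the bottom of the scale.

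Of the 4 immunoglobulin-like molecules, 3 were higher on the RS array and Icam2 was lower. Icam1, a ligand of the integrin LFA-1 that inflammatory signals induce on endothelium and that antigen-presenting cells also bear, went from an intensity of 1580 on the C array to 2322 on the RS array. This was a log2 difference of 0.65 (1.57-fold) beside a spot error of 0.20. Icam1 stood further out for its brightness than any other member: among the other 5276 genes in the brightest quartile of signal, 158 (2.99%) were higher by as much or more. Other settings gave values for Icam1 from 0.56 without normalization to 0.68 with the median of all probes as the scale. Icam2, another ligand of LFA-1, which resting endothelium displays, went from 335.9 to 268, a log2 difference of -0.23 beside a spot error of 0.20. Icam1 and Icam2 thus differed in opposite directions, and only the difference of Icam1 exceeded 1.96 times the spot error.

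Vcam1, the ligand of the integrin VLA-4 on endothelium and on stromal and follicular dendritic cells, went from an intensity of 5680 on the C array to 6416 on the RS array, a log2 difference of 0.27 beside a spot error of 0.20. In the brightest quartile, 12.5% of the other genes were higher by as much or more. Madcam1, the addressin that binds the integrin made of the alpha 4 and beta 7 chains, went from 15.7 to 21.8. Its log2 difference of 0.57 had a spot error of 0.33, and 785 of the other 5277 genes in the dimmest quartile were higher by as much or more. With normexp, the difference of Madcam1 was 0.15. Neither gene differed by more than 1.96 times its spot error.

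The integrin chains of leukocytes differed in direction. Itgal, the alpha chain of LFA-1, went from an intensity of 121 on the C array to 76.7 on the RS array, a log2 difference of -0.55 (1.47-fold lower) beside a spot error of 0.21. Among the other 5276 genes in its quartile of signal, 508 (9.63%) were lower by as much or more. Itga4, the alpha 4 chain of VLA-4, went from 666 to 759.8, a log2 difference of 0.29 beside a spot error of 0.20. T cells bear much of the LFA-1 of a lymph node, and the T cell markers were lower beside Itgal: 6 of 6 had a difference below 0, from -0.97 to -0.14 (median -0.37), and their summed signal, in units of the 75th percentile, was 153 for C and 136 for RS. All of these markers were well above background on both arrays. In bulk RNA, fewer cells of a type and less RNA per cell cannot be told apart, and the part of T cells in the difference of Itgal was not tested. The B cell markers had a median of -0.05, with 2 of 5 above 0.

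**Figure D2:**
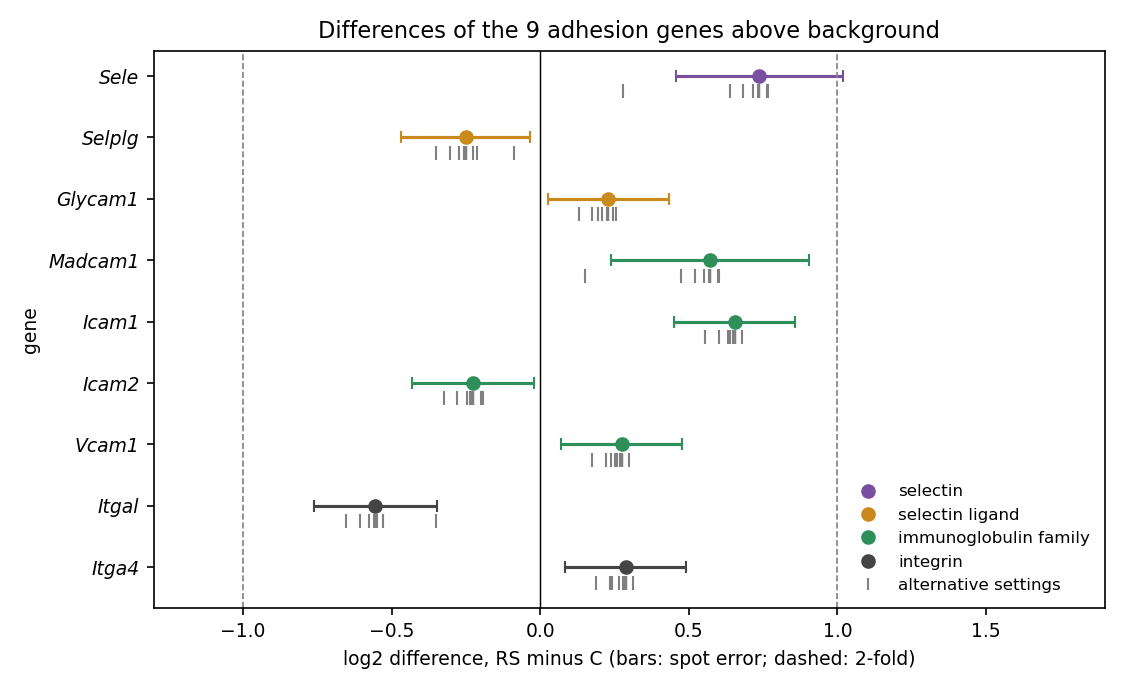
Log2 difference between the RS and the C array for the 9 members well above background, colored by the kind of molecule, with the spot error as bars. Gray ticks give the 13 alternative settings, and dashed lines mark 2-fold. Sele and Icam1 lie furthest to the right and Itgal furthest to the left, and no point or tick reaches a dashed line, though the upper end of the Sele bar crosses it.

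By the threshold of 1.96 times the spot error, which was chosen after the values were seen, 3 of the 9 members differed, namely Sele and Icam1, higher, and Itgal, lower. With normexp, Icam1 (0.64) was still past this threshold, and Sele (0.28) and Itgal (-0.35) were not. The spot error in that comparison was the one of the signals without the offset. The offset makes the log2 differences of dim spots smaller, and their spot error with the offset was not computed. By the same threshold, 21.2% of all genes screened differed in either direction. Members of the vessel wall and stroma were higher in 5 of 6 cases (median 0.42), the exception being Icam2. Those of leukocytes were lower in 2 of 3 cases (median -0.25), the exception being Itga4. Of all genes screened, 52.1% had a difference above 0. Apart from Sele, Icam1, and Itgal, the differences behind these counts of members lay within 1.96 times the spot error. The blood endothelium markers stood beside the members of the vessel wall and stroma with a median of 0.06 and 7 of 12 above 0. Their summed signal was 34.4 for C and 36.7 for RS. Of the high endothelial venule markers, which include Glycam1 and Madcam1, 4 of 5 were above 0 (median 0.57, the value of Madcam1 itself). Their summed signal was 93.3 for C and 111 for RS, mostly that of Glycam1. The markers above background that are not members were Enpp2 (0.64) and Ackr1 (0.93), higher, and Fut7 (-0.99), lower. Chst4 and Nkx2-3, further markers of these venules, were not well above background. Of the stromal and follicular dendritic cell markers, 6 of 8 were above 0 (median 0.29), with a summed signal of 195 and 209. Of these, 2 were higher by 2-fold or more, Col1a1 (1.24) and Pdpn (1.16). The 2 markers below 0 were Ccl19 (-0.56) and Ccl21 (-0.19), each read by a probe with an alternating run. The part of these cells in the values of Sele, Icam1, Vcam1, and Madcam1 was not tested.

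**Figure D3:**
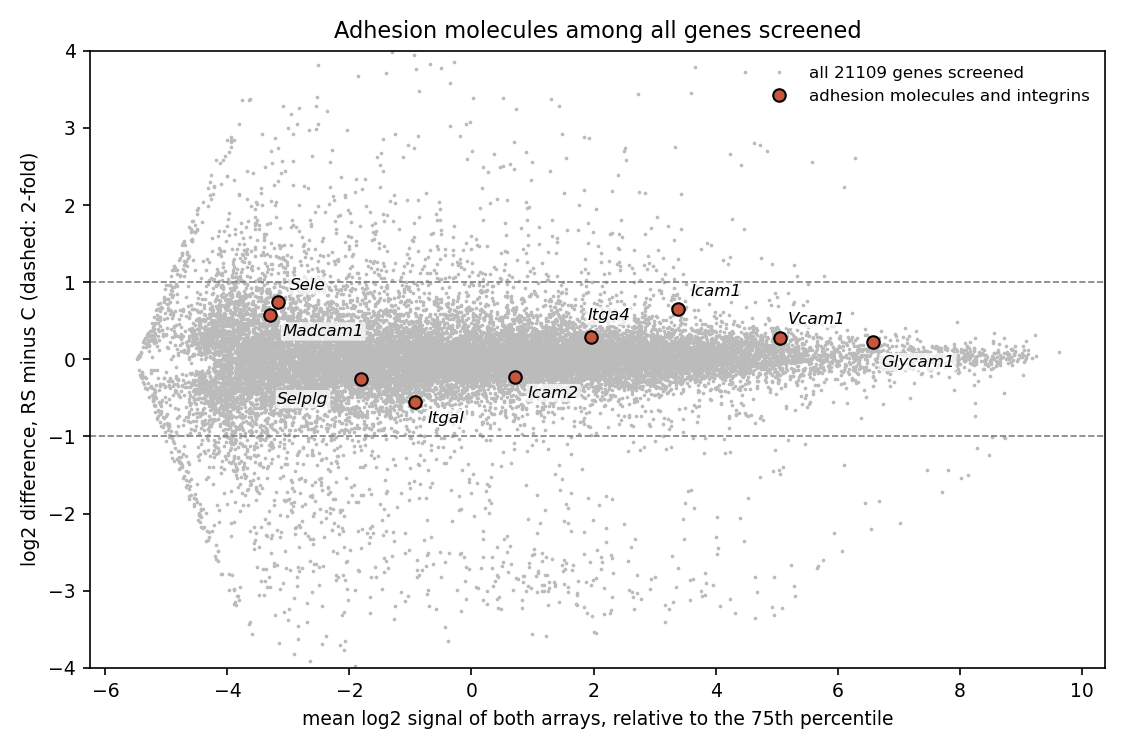
Log2 difference between the RS and the C array against the mean log2 signal of both arrays, for all 21109 genes screened (gray) and the 9 members (red); dashed lines mark 2-fold, and 21 genes lie beyond the axis, which ends at 4 in both directions. All 9 members lie within the dashed lines; Sele and Madcam1 lie where the cloud of dim genes is widest, and Icam1 lies near its upper edge among bright genes.

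Read as pairs of receptor and ligand, no pair differed by 2-fold on either side. For the pair of LFA-1 and its ligands, the log2 differences were -0.55 for Itgal and -0.12 for Itgb2, the beta chain that LFA-1 shares with other leukocyte integrins, against 0.65 for Icam1 and -0.23 for Icam2. For VLA-4 and its ligand, they were 0.29 for Itga4 and 0.19 for Itgb1, the beta 1 chain, against 0.27 for Vcam1. For the gut-homing integrin, they were 0.29 for Itga4 and -0.60 for Itgb7, its beta chain, against 0.57 for Madcam1. Itgb7 went from an intensity of 1054 to 649 (spot error 0.20). Itgb7 is given as the partner of a member and was chosen after its values were seen.

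The wider set of leukocyte adhesion, in 5 lists, held 65 further genes, of which 63 had a probe and 59 were screened. Of these 59 genes, 5 were higher and 1 was lower by 2-fold or more, against 3.46% and 4.28% of all genes, and their median was 0.02. Itga2b and Itgax were not matched to a probe.

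Among the other integrin chains, 1 of 14 was past 2-fold. Itga5, the alpha chain of the fibronectin receptor, went from an intensity of 13.3 on the C array to 49.9 on the RS array, a log2 difference of 2.01 (4.02-fold higher) beside a spot error of 0.32. With normexp, its difference was 0.62. The brightest chains of the list, Itgb1 and Itgb2, went from 3409 to 3631 and from 2109 to 1808. The median of the list was 0.02.

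Among the sialomucins and CD44, 1 of 7 was past 2-fold (median 0.43). Emcn, which encodes the endothelial sialomucin endomucin, went from 20.6 to 43.2, a log2 difference of 1.17 beside a spot error of 0.26, and of 0.41 with normexp. Spn, the sialomucin CD43 of leukocytes, went from 3437 to 2235 (log2 difference -0.52, spot error 0.14), and the hyaluronan receptor Cd44 from 1477 to 1606 (0.22). Of the enzymes that build selectin ligand sugars, 0 of 9 were past 2-fold, with differences from -0.99 to 0.45. The sulfotransferase Chst1 went from 1627 to 1150 (-0.40, spot error 0.06) and the sialyltransferase St3gal4 from 1240 to 1261 (0.12).

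The junction and transmigration molecules held 4 of the 6 pathway genes past 2-fold. Aoc3, the vascular adhesion protein VAP-1, an amine oxidase that fat cells also express strongly, went from an intensity of 639.8 to 2653 in 2 spots per array, a log2 difference of 2.15 (4.44-fold higher) beside a spot error of 0.14. The fat cell markers were above 0 in 6 of 6 genes and past 2-fold in 5 (median 2.18), with a summed signal of 33.8 for C and 89.1 for RS, while Plin1, also on the list, was not well above background. The part of fat cells in the difference of Aoc3 was not tested. Pvr, the poliovirus receptor, which binds CD226 and is named PVR in the files, went from 65.4 to 225 (log2 difference 1.88, spot error 0.21). Mcam, an immunoglobulin-like molecule of endothelium and pericytes, went from 139 to 278 (1.09, spot error 0.21), with a probe that holds an alternating run, and was under 2-fold without normalization (0.996) and with normexp (0.85). Cd226, a receptor of T and NK cells, had 3 probes that disagreed: the brightest, with such a run, gave a log2 difference of -2.85, and the others gave -0.29 and -0.03, so the gene was not past 2-fold without that probe. Cd48 (0.24) and Cd47 (0.29), the brightest of the list, were under 2-fold.

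Of the genes by which chemokine signals activate integrins, 0 of 12 were past 2-fold, and all lay between -0.22 and 0.28 (median -0.08). The adaptor Fyb went from an intensity of 8084 to 6835 and Tln1, which encodes talin, from 4331 to 3810.

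**Figure D4:**
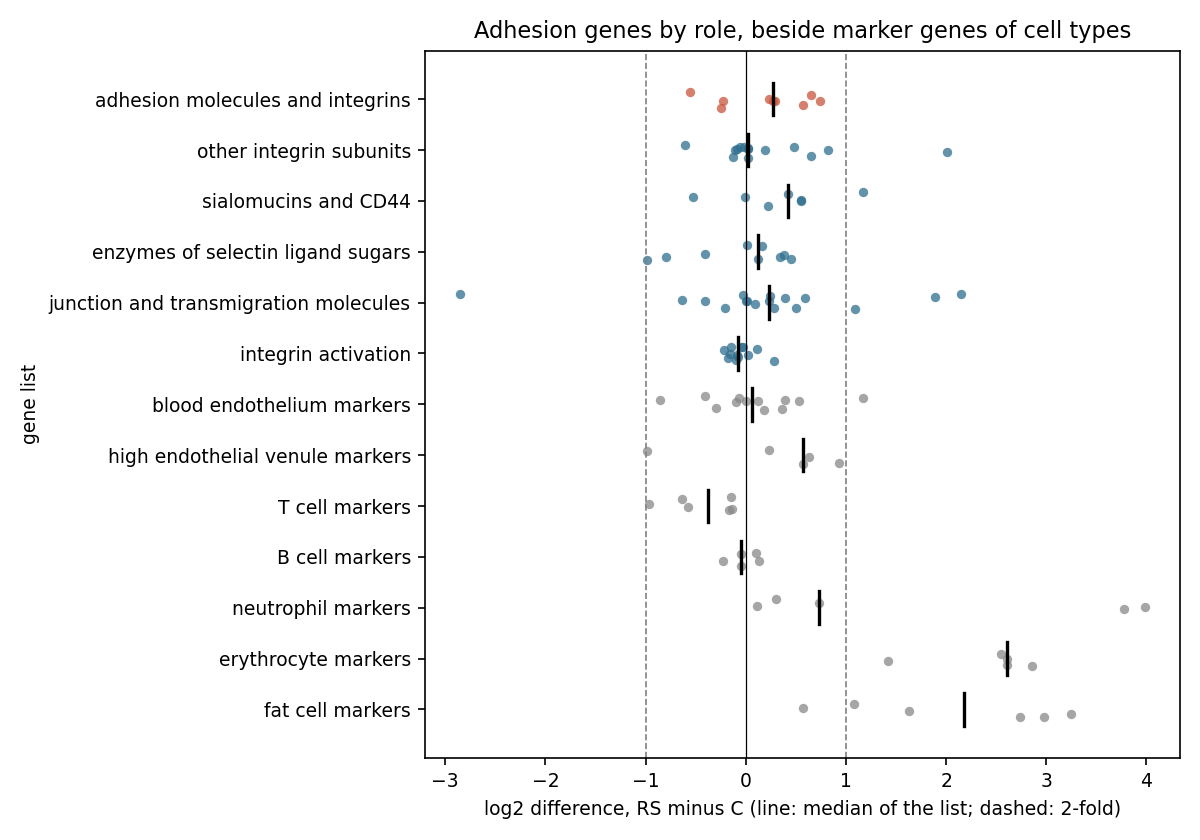
Log2 difference between the RS and the C array for single genes of each list (points) with the median of the list (black line); the members are in red, other adhesion genes in blue, and cell type markers in gray. The medians of the adhesion lists lie between -0.08 and 0.43, with single genes past the dashed 2-fold lines, while the erythrocyte and fat cell markers lie to the right (medians of 2.604 and 2.18) and the T cell markers to the left (-0.37).

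Erythrocyte markers and 2 of the neutrophil markers differed by 2-fold or more beside these values. The erythrocyte markers were higher by 2-fold or more in 5 of 5 genes, with a summed signal of 52.8 for C and 316 for RS, while Slc4a1 and Epb42 were not well above background. The neutrophil markers were above 0 in 5 of 5 genes, with a summed signal of 0.523 and 4.55. Of these genes, 2 were past 2-fold, S100a8 (3.99) and S100a9 (3.78). Csf3r (0.11) and Lcn2 (0.31) differed by less than their spot errors (0.29 and 0.32). Cxcr2 (0.73) was well above background on the RS array only, and Mpo and Elane were so on neither array. Neutrophils and platelets use several of the molecules described here, and their part in the values was not tested. Of the platelet markers, 3 were well above background, with a summed signal of 1.69 for C and 2.08 for RS, and they differed in direction. Pf4 (0.94) and Gp1bb (0.43) were higher, and Gp9 (-0.60) was lower. Ppbp, Gp6, and Treml1 were not well above background.

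Promoter sequence is shown for 4 members that cytokines are known to induce on endothelium or stroma, as the 250 bases before the annotated start of the gene in RefSeq (build GRCr8). Matches to the NF-kB motif on either strand are in capitals. An entry was available for 6 of the 10 members, and not for Selp, Selplg, Icam2, or Itgal.
Sele, chr13:78936264-78936513, forward strand: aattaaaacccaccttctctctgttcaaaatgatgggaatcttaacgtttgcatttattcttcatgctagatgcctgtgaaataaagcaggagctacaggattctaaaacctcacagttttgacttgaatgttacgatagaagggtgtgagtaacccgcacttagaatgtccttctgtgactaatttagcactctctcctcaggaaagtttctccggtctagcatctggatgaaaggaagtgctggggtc
Icam1, chr8:27829595-27829844, forward strand: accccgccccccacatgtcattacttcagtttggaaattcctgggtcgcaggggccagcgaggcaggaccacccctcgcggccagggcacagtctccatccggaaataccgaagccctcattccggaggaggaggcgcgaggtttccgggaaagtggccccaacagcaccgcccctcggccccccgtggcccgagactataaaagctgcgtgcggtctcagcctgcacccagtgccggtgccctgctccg
Vcam1, chr2:206742784-206743033, reverse strand: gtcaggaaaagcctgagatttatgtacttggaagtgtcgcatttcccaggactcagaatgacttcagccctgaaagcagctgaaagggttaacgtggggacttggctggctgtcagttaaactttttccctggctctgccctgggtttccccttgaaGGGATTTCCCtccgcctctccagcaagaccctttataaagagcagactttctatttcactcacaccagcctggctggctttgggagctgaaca
Madcam1, chr7:10690323-10690572, reverse strand: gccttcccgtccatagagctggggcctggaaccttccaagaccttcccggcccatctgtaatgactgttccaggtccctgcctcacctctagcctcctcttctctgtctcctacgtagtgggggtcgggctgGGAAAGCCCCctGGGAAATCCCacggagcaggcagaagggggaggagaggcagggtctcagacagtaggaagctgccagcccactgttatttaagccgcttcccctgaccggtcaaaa
Matches to the NF-kB motif lay in the window of Madcam1, starting 118 and 106 bases before the start, and in that of Vcam1, starting 93 bases before it. The motif was found in 1185 of 33465 promoter windows of this length (3.54%). The windows of Sele, Icam1, Glycam1, and Itga4 held no match to the searched form of this motif. The sequence TGANTCA, which AP-1 factors bind, was in none of the 6 windows and in 6.34% of all windows. A match, or the lack of one, describes the searched letters only. Sites that depart from those letters were not sought. A window without a match, such as that of Icam1, may therefore still hold a binding site, and a window with a match may hold further ones.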

How the data were processed

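Cy3-labeled cRNA of rat cervical lymph nodes was hybridized to 1-color Agilent rat arrays. The authors deposited spot intensity values of Feature Extraction 11.5.1.1, which subtracts background on each array but does not scale the arrays to each other, and a table of log2 values. Against the scanner values, 100% of that table's values for 45598 probes lay within 0.1 of log2 intensity minus the array's 75th percentile. The table was used as an alternative.

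Outlier spots (489 for C, 660 for RS) were left out. Repeat spots were averaged on the log2 scale, and each array was shifted by its 75th percentile, as in the paper's methods. A probe counted as well above background when more than 50% of its spots were marked so. For a gene with several probes, the brightest of those well above background on at least 1 array stood for it. Where a probe was so on 1 array only, the difference is a bound against the higher of its own signal and the lowest signal well above background on the dim array. The threshold of 2-fold is that of the paper, and no p-value was computed. The number of arrays limits the precision.

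The members and lists were chosen with earlier results of these data known. Genes named were all members and, of the 5 pathway lists, those past 2-fold and the 2 brightest of each list. Itgb7, named as the partner of Itga4, Fut7 and St3gal3, past 2-fold only under other settings, and the markers named fall outside this rule and were chosen after their values were seen. A gene of these lists is not reported here and was left out of the counts. Of the 11 marker lists, the lymphatic endothelium list had a median log2 difference of 0.47, the macrophage list -0.10, and the platelet list 0.43, and the others are given with the results. Results were recomputed under 13 other settings, and under 1 more that was added with the values known. Simulated arrays were used to test the steps. Calculations used numpy 2.4.6 and pandas 2.3.3 in Python 3.11.15, R 4.3.3 with limma 3.58.1 (normexp with an offset of 50), and matplotlib 3.10.9.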

Additional observations from a re-analysis of the deposited data

How the results depend on the processing

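No paired analysis was possible because C and RS have 1 array each. No member passed 2-fold under any of the 13 other settings, and no member changed direction. Of 117 member values, 115 moved by less than the spot error. The others were Sele (0.28) and Madcam1 (0.15) with normexp, whose offset is added to each signal before the logarithm. Itgal was -0.35 with normexp. Several settings could not move a member value, since each screened member had 1 probe well above background, on both arrays, without an alternating run. These were the mean over probes, the plain ratio in place of the bound, the changed background filters, and leaving out alternating probes. Their values are among the 115. The other percentile scalings, the median scaling, and no normalization shift all members by 1 common amount, which was below every spot error. The deposited table and the kept outlier spots left each member almost unchanged. Only quantile normalization and normexp could move members relative to each other, so the 115 values are not separate checks. Selp had a value only without a background filter (-0.046). Over 1.96 times the spot error in place of 2-fold, a threshold chosen after the data had been seen, 2 members, 14 pathway genes, and 2313 of all genes were higher, and 1, 7, and 2157 were lower. With normexp, 2 pathway genes (Aoc3 and Pvr) were higher by 2-fold or more instead of 5, and of all genes 234 were higher and 378 lower. The lower pathway genes numbered 2 in place of 1 with the 75th percentile over probes above background on both arrays or over spots, and without normalization (with Fut7, at -1.01, -1.04, and -1.08), and with the mean over probes (with St3gal3, at -1.32). They numbered 3 without a background filter, and 0 with the alternating probes left out. Of all genes, 601 were lower with both arrays above background, 498 with alternating probes left out, and 1904 without a filter, where 1741 were higher. The median over all genes stayed between -0.083 and 0.041 under every scaling. Signal over background limits Sele, Madcam1, and Selp most.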
